A study of Rattus norvegicus with 8 samples.

Results

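The cytosolic ribosomal protein genes were 68 of the 14506 genes measured in this rat liver series, 39 of the large ribosomal subunit, 26 of the small subunit and the 3 stalk genes Rplp0, Rplp1 and Rplp2. They were chosen by symbol: Rpl or Rps followed by digits and at most 1 trailing letter a, x or y, with the 3 stalk genes and Rpsa added, and without the Rps6k kinases. Each gene was represented by its single-symbol probe set with the highest mean over the arrays. No filter on low values was used, so all 68 genes entered every test.

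The RNA came from livers of female Wistar rats, which are outbred, and was hybridised to Affymetrix Rat Gene 1.0 ST arrays, 8 in all and 2 for each of 4 groups. The first group was liver left in place after partial hepatectomy (PH), the removal of the lateral lobes, taken 8 h after surgery. The other groups were livers of rats aged 2, 4 and 12 weeks with no operation named. How old the operated rats were is not stated in the labels, and livers of sham-operated rats were not analysed here. Effects of surgery and of age therefore cannot be told apart between PH livers and livers of 12-week rats, the oldest group. The titles number the arrays of a group as biological replicates 1 and 2, called the first and the second array here, while the study's design describes samples handled in duplicate. The spread behind each p-value is that between arrays and may be partly technical, and the number of arrays limits the precision. In whole liver, fewer cells of a type and less RNA per cell cannot be told apart.

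Ribosomal proteins assemble with ribosomal RNA in the nucleolus into the small subunit, which decodes mRNA, and the large subunit, which joins amino acids. Their mRNAs are among the most abundant of most cells, and in the liver ribosome production is known to increase as hepatocytes grow after hepatectomy. Vertebrate ribosomal protein mRNAs begin with a cytosine and a run of pyrimidines, the 5′ terminal oligopyrimidine (TOP) tract, through which mTORC1 signalling adjusts their translation, so that protein output can change without a change in mRNA level.

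The start of transcription is shown for 11 genes because the TOP run there is the sequence feature that sets this family apart from most genes. RefSeq promoter windows on the GRCr8 build were matched by symbol for 58 of the 68 genes. Each line gives 10 bases before the annotated start and 20 from it on the transcript strand, with capitals for a run of at least 5 C and T that begins with a C within 5 bases of the start.
Rpl10 (chrX:157205840-157205869, plus strand): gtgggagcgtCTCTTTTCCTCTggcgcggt
Rpl28 (chr1:78083513-78083542, minus strand): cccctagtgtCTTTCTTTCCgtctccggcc
Rpl31 (chr9:49143101-49143130, plus strand): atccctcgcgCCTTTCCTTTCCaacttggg
Rpl34 (chr2:221962264-221962293, minus strand): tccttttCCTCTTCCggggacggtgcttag
Rplp1 (chr8:71290853-71290882, minus strand): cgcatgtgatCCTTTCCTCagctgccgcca
Rps7 (chr6:50999426-50999455, minus strand): agagctgtgtCTCTTTCTaagccggcactc
Rps14 (chr18:56498250-56498279, plus strand): ccgtctCTCTCTTTCCggtggaggagtctg
Rps15 (chr7:10068096-10068125, minus strand): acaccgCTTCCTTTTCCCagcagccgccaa
Rpl3 (chr7:113507971-113508000, minus strand): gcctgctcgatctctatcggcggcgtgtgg
Rpl5 (chr14:1995206-1995235, minus strand): ctttcccacgtcgcttgcgtcctggaggtg
Rpl11 (chr5:153560783-153560812, minus strand): cttgaagcttgtttggtgctggggagcatc
The first 8 windows carry such a run at or across the start and the last 3 have none by this rule, which says only that these letters are not at the annotated start.

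A C at the start followed by at least 4 C or T, read on the transcript strand, was present in 23 of the 58 ribosomal protein genes (39.7%) and in 2.63% of 27457 rat promoters. With the C allowed within 5 bases of the start, it was present in 37 of the 58 (63.8%) and in 17.0% of all promoters. By the stricter definition it was present in 2 of 54 mitochondrial ribosomal protein genes, Mrpl4 and Mrps5, and in 0 of 29 translation initiation factor genes. In the 300-base windows, read on both strands, CCGGAAG, a core of ETS family binding sites, was present in 31.0% of the ribosomal protein genes and in 9.22% of all promoters. GGGCGG, the core of the GC box, was present in 56.9% and 34.9%, and CTTTCC in 48.3% and 26.4%, of which CTTTCC can overlap the TOP run itself. TATAAA, the TATA box, was present in 10.3% of the ribosomal protein genes and in 14.3% of all promoters. CCGGAAG was not particular to the cytosolic ribosomal protein genes. It was present in 33.3% of the 54 mitochondrial ribosomal protein genes, 34.5% of the 29 initiation factor genes and 47.1% of 17 ribosome biogenesis genes. Among 9 elongation factor genes 0 had it, and among 8 other proteins made with or bound to the ribosome 1 did.

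The ribosomal protein genes gave strong signal on every array. Their mean levels lay between 6.15 for Rps27 and 12.43 for Rpl28 on the log2 scale of the deposited values, with a median of 10.54 against 6.75 over all genes, and 51 of the 68 were among the top 10% of genes by mean level. The 4 highest means were those of Rpl28, Rpl21, Rpl5 and Rpl10, and the 4 lowest those of Rps27, Rpl15, Rps24 and Rps13. Probe sets bind with different strength, so no order of abundance among the genes is read from these levels. The median of the 68 genes was 10.28 and 10.85 on the arrays of PH livers, 10.51 and 11.07 at 2 weeks, 10.24 and 10.94 at 4 weeks, and 9.93 and 10.59 at 12 weeks. In each group the second array was the higher one, and the first array at 12 weeks was the lowest of all 8. The median over all 14506 genes lay between 6.59 and 6.86. The authors' processing equalised the arrays, which keeps this median near constant.

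**Figure D1:**
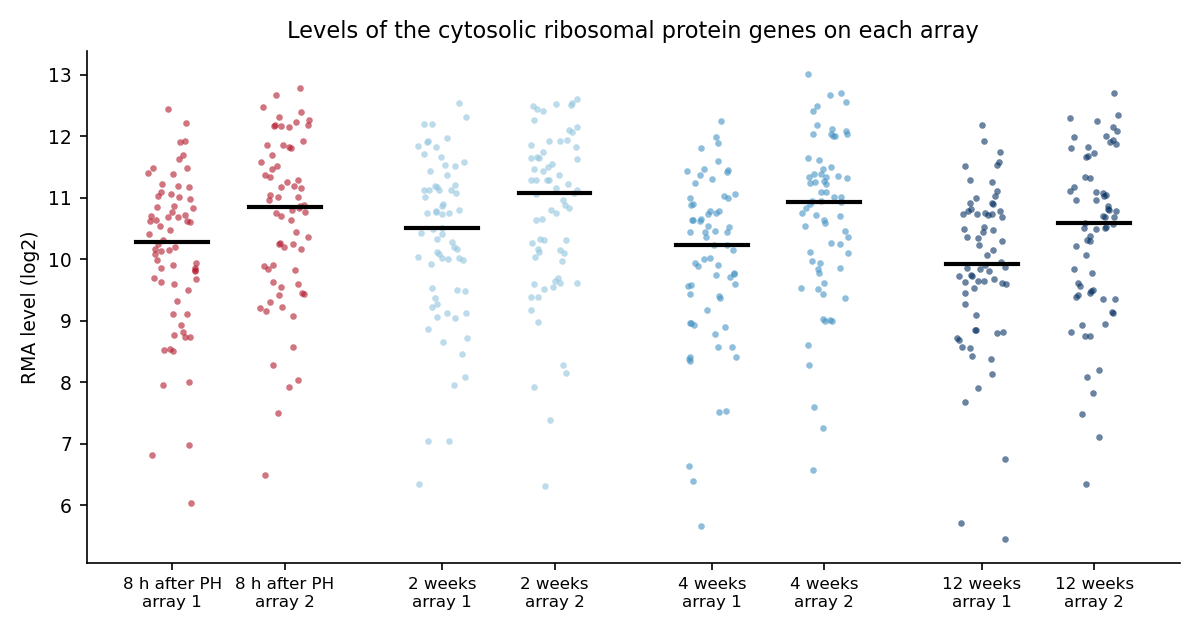
The plot gives the log2 level of each of the 68 ribosomal protein genes (points) on each of the 8 arrays, with the median of the 68 as a black bar. Within each group the median is higher on array 2 than on array 1, and the lowest median, 9.93, is on array 1 of the 12-week livers.

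The difference between the arrays of a group ran in a shared direction for most of these genes. The first array minus the second had a median over the 68 genes of -0.47 in PH livers, -0.41 at 2 weeks, -0.67 at 4 weeks and -0.48 at 12 weeks, while the medians over all genes were 0.03, 0.01, 0.03 and 0.02. The second array gave the higher value for 61 of 68 genes in PH livers (47% of all genes), 60 at 2 weeks (48.6%), 66 at 4 weeks (47.2%) and 56 at 12 weeks (48.9%). Among the 2190 other genes with a mean level of 9 or more, the shares were 52.7%, 41.8%, 53.7% and 69.5% in the same order. At 12 weeks the direction was thus shared by most genes of high level. By size, arrays lay 1 log2 unit or more apart for 16.2% of the 68 in PH livers (2.98% of all genes), 5.88% at 2 weeks (3.31%), 25% at 4 weeks (4.27%) and 10.3% at 12 weeks (12.7%). The 12-week arrays, against which PH livers are set and which stand against the younger ages below, were thus the pair farthest apart by this count over all genes. The second array was higher in all 4 groups for 50 of the 68 (73.5%), and for 12.4% of all genes. Rps14, a protein of the small subunit platform that helps bind mRNA, was the single member with the first array higher in all 4 groups, which held for 12.9% of all genes. The labels do not say what arrays of the same number share, and the part of handling in these differences was not tested.

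**Figure D2:**
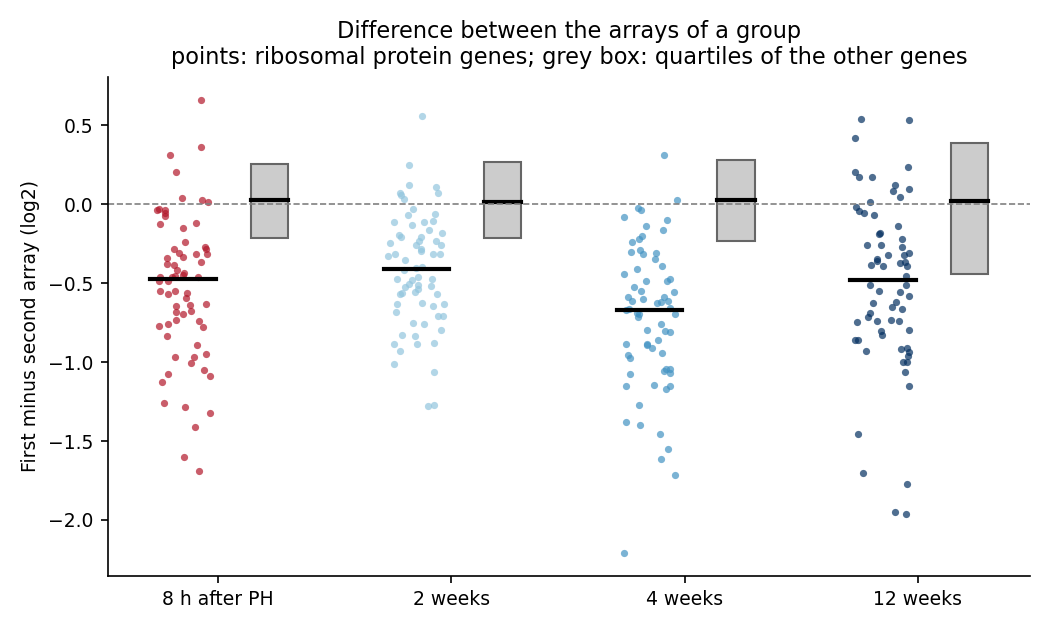
The plot gives the first array minus the second (log2) in each group for the 68 ribosomal protein genes (points, black bar at their median) and the quartiles of the other genes (grey box, black bar at the median). The medians of the ribosomal protein genes lie between -0.67 and -0.41, and those of the other genes lie close to 0.

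Among large subunit proteins, Rpl10, which joins the subunit late and is needed for its release into translation, stood at 11.38 and 12.79 in PH livers, 11.97 and 12.54 at 2 weeks, 11.46 and 13.01 at 4 weeks, and 10.74 and 12.70 at 12 weeks. Its arrays differed by -1.96 at 12 weeks, and the values of every group overlapped those of the others. Rpl11, which with Rpl5 carries the smallest ribosomal RNA into the large subunit and can bind the p53 regulator Mdm2, stood at 10.17 and 11.86 in PH livers, 11.13 and 11.93 at 2 weeks, 10.54 and 11.34 at 4 weeks, and 9.88 and 11.82 at 12 weeks. Its partner Rpl5 did not show this split, at 12.21 and 12.17 in PH livers, 12.32 and 12.08 at 2 weeks, 11.99 and 12.19 at 4 weeks, and 11.92 and 11.99 at 12 weeks. The 2 partners thus differed in how far apart their arrays lay. Rpl30, another large subunit protein, stood at 10.72 and 12.32 in PH livers, 11.90 and 12.44 at 2 weeks, 11.00 and 12.71 at 4 weeks, and 10.45 and 12.16 at 12 weeks. Rpl15, a protein of the large subunit core, stood at 6.97 and 7.92 in PH livers, 7.04 and 7.92 at 2 weeks, 6.40 and 7.26 at 4 weeks, and 5.72 and 7.49 at 12 weeks. Both were higher on the second array in every group, by more than 0.5 each time. The widest gap of any member was that of Rpl36 at 4 weeks, -2.21, with 9.44 on the first array and 11.65 on the second, while its arrays at 12 weeks stood at 9.82 and 9.61.

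Among small subunit proteins, Rps6, the substrate of S6 kinase downstream of mTORC1, stood at 11.18 and 12.19 in PH livers, 11.54 and 11.94 at 2 weeks, 11.03 and 12.01 at 4 weeks, and 10.73 and 11.88 at 12 weeks. All 4 second arrays of Rps6 were above all 4 first arrays. Rps15, a protein of the small subunit head named here after its values were seen, had the same split, at 8.50 and 9.82 in PH livers, 8.87 and 10.15 at 2 weeks, 8.41 and 9.79 at 4 weeks, and 8.42 and 9.38 at 12 weeks. Rps19, a protein of the same head whose human gene is mutated in Diamond-Blackfan anaemia, had no common direction, at 8.94 and 8.57 in PH livers, 8.72 and 8.98 at 2 weeks, 8.41 and 9.02 at 4 weeks, and 8.73 and 8.19 at 12 weeks. Rpsa, a small subunit protein also known as the laminin receptor, differed by little, at 11.01 and 11.30 in PH livers, 11.36 and 11.29 at 2 weeks, 10.99 and 11.23 at 4 weeks, and 10.69 and 11.07 at 12 weeks.

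The stalk proteins, which recruit elongation factors to the large subunit, were all higher on the second array in all 4 groups. Rplp0, the base of the stalk, stood at 10.70 and 11.33 in PH livers, 10.87 and 11.38 at 2 weeks, 10.46 and 10.93 at 4 weeks, and 10.30 and 11.10 at 12 weeks. Rplp1 stood at 11.63 and 12.27 in PH livers, 11.85 and 12.41 at 2 weeks, 11.60 and 12.49 at 4 weeks, and 11.59 and 11.93 at 12 weeks. Rplp2 stood at 10.61 and 11.70 in PH livers, 10.73 and 11.74 at 2 weeks, 10.63 and 12.08 at 4 weeks, and 10.79 and 11.04 at 12 weeks. For each of the 3 the ranges of all 4 groups overlapped.

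The gaps between arrays were also read by the stricter definition, a C at the annotated start followed by at least 4 C or T. The mean difference of first minus second array had a median of -0.56 over the 23 genes with it and -0.47 over the 35 matched genes without it. Single genes ran from -1.37 to 0.32 and from -1.31 to 0.09. Some of the 35, such as Rpl29, do have a run by the looser definition, so they are not a group without a TOP run. This is a description with no test. Over the 4 groups, 22 members (32.4%) had arrays more than 1 log2 unit apart in at least 1 group, against 18.6% of all genes, and 12 (17.6%) stayed within 0.5 in all 4, against 36.1% of all genes.

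**Figure D3:**
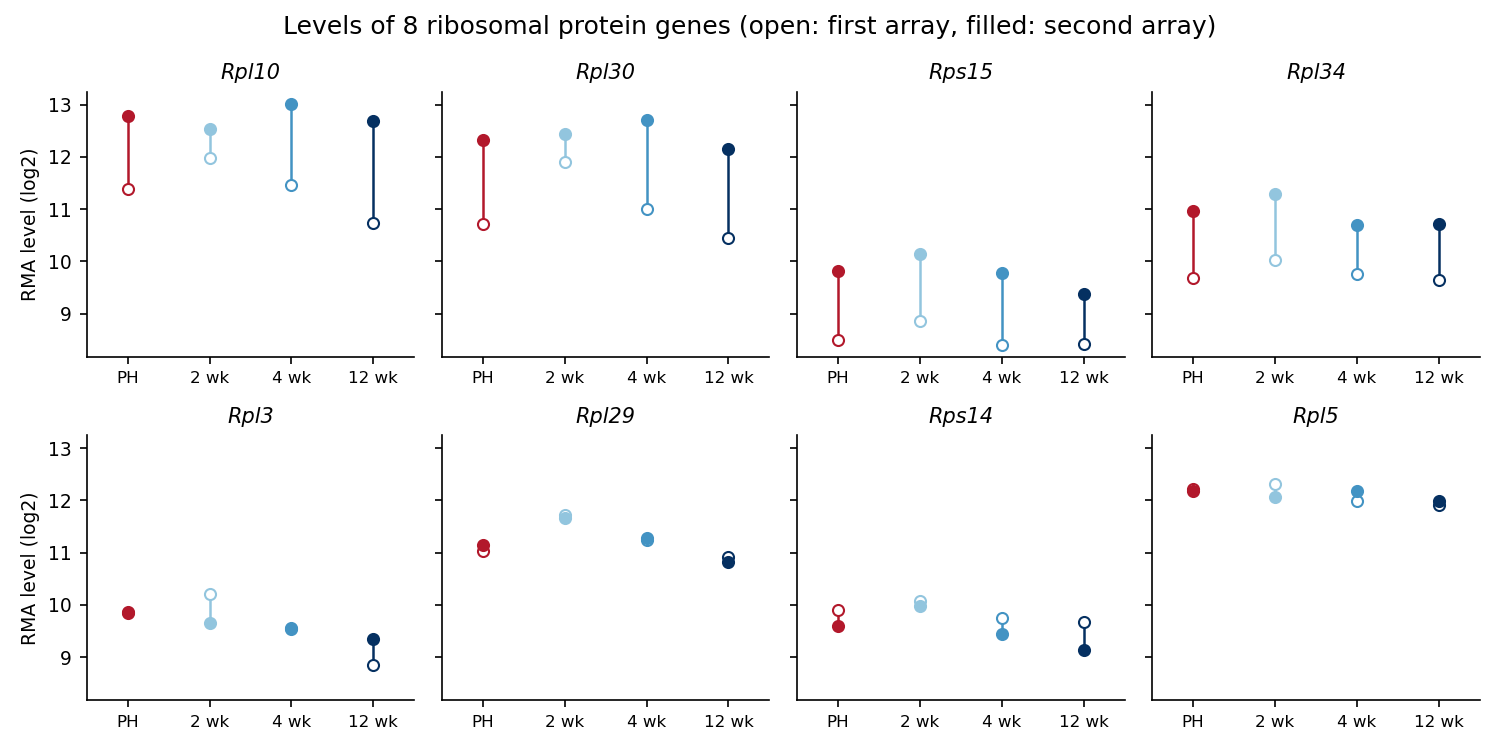
Each panel plots 1 gene's log2 level on the first (open) and second (filled) array of PH, 2-, 4- and 12-week livers, for 4 genes with wide gaps and 4 with narrow or opposite ones, chosen after their values were seen. Rpl10, Rpl30, Rps15 and Rpl34 lie higher on the second array in every group, while Rps14 lies lower there in every group, as at 12 weeks with 9.14 on the second array and 9.68 on the first.

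PH livers were compared with livers of 12-week rats, a comparison in which surgery and age cannot be told apart. Of the 68 genes, 66 had a higher mean in PH livers than at 12 weeks, against 50.3% of all genes, but the differences were small, with a median of 0.25 (a 1.19-fold difference) and a range from -0.05 to 0.84. No gene of the 68 was called by limma's moderated test at an adjusted p under 0.05, the lowest adjusted p being 0.695, while 0.0345% of all genes were called. At an unadjusted p under 0.05, 2 members were higher (2.94%), a share near the 3.03% of all genes that were higher by that test. In 14 members (20.6%) both PH arrays were above both 12-week arrays, against 13.7% of all genes. Among the 2190 other genes with a mean level of 9 or more the share was 22.1%, so the members did not exceed genes of like level. The median standard error of a member's difference was 0.34, above the median difference itself.

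The members at the upper end of this comparison were Rpl15, Rpl3, Rps12 and Rpl39. Rpl3, which lies at the peptidyl transferase centre, stood at 9.86 and 9.84 in PH livers and at 8.85 and 9.36 at 12 weeks, with no overlap and a difference of 0.75 ± 0.27 (SE, n = 2 arrays each; limma adjusted p = 0.695), which ran from 0.49 to 1.00 when single arrays were left out. Rps12, a small subunit protein, stood at 10.55 and 9.88 in PH livers and at 9.62 and 9.50 at 12 weeks, a difference of 0.66 ± 0.27, or 0.33 without the first PH array. Rpl15 differed by 0.84 ± 0.61 with overlapping groups, and without the first 12-week array its difference was -0.042. Rpl39, which lines the exit tunnel for the growing chain, stood at 9.11 and 9.42 in PH livers and at 8.57 and 8.93 at 12 weeks, a difference of 0.52 ± 0.37. At the lower end were Rps29 at -0.05, Rpl35 at -0.02, Rpl24 at 0.01 and Rpl37a at 0.03, and the sign of each of these 4 turned when single arrays were left out. The large and small subunits did not stand apart here, with medians of 0.24 and 0.28. Compared within first arrays and within second arrays, the median difference was 0.24 and 0.28, with 57 and 63 of the 68 genes above 0. Without the second PH array the median was -0.032, and without the first PH array it was 0.52.

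Between 12 and 2 weeks, an age span in which liver growth slows and the organ matures, every one of the 68 genes had the lower mean at 12 weeks, against 48.4% of all genes. The median difference was -0.43 (0.742 of the 2-week level) and the range was from -0.88 to -0.01. None was called by limma, with a lowest adjusted p of 0.100 for Rpl29, while 2.23% of all genes were called. At an unadjusted p under 0.05 there were 4 members, all lower (5.88%), a share near the 6.44% of all genes that were lower by that test. In 30 members (44.1%) both 12-week arrays were below both 2-week arrays, against 17.6% of all genes. The 12-week arrays are the same ones that stand against the PH livers above, so the 2 comparisons are not separate evidence.

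The 4 genes with an unadjusted p under 0.05 were Rpl29, Rpl3, Rps14 and Rps3a. Rpl29, a large subunit protein also known to bind heparin, stood at 10.91 and 10.82 at 12 weeks, against 11.72 and 11.66 at 2 weeks, a difference of -0.82 ± 0.20 (SE, n = 2 arrays each). Rpl3 stood at 8.85 and 9.36 at 12 weeks, against 10.21 and 9.65 at 2 weeks, a difference of -0.82 ± 0.27 (limma adjusted p = 0.245), which ran from -1.10 to -0.55 when single arrays were left out. Rps14 stood at 9.68 and 9.14 at 12 weeks, against 10.08 and 9.97 at 2 weeks, a difference of -0.62 ± 0.26. Rps3a, near the mRNA exit of the small subunit, stood at 11.54 and 11.81 at 12 weeks, against 12.20 and 12.26 at 2 weeks, a difference of -0.56 ± 0.23. In all 4 genes the groups did not overlap. The lowest estimates of all belonged to genes with wide gaps between arrays, Rpl15 at -0.88 ± 0.61, Rpl30 at -0.87 ± 0.75 and Rpl27 at -0.86 ± 0.46. Without the first 12-week array, Rpl15 stood at 0.008, Rpl30 at -0.016 and Rpl27 at -0.36. The smallest differences were those of Rps23 at -0.01, Rps2 at -0.06, Rps15a at -0.12 and Rps21 at -0.14, all small subunit proteins, and each turned above 0 without the second 2-week array.

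The median was -0.46 over the large subunit, -0.41 over the small subunit and -0.37 over the stalk genes. Within first arrays the median was -0.40, with 6 of 68 genes above 0, and within second arrays it was -0.37, with 4 above 0. When 1 array was left out at a time, the median stayed below 0 throughout and lay at -0.66 without the second 12-week array and -0.17 without the first. With the receptor level described below as a covariate it was -0.19.

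The 4-week livers lay between the other ages in most members. Group means ran in the order 2 weeks over 4 weeks over 12 weeks in 47 of the 68 genes (20.9% of all genes). The lowest of the 4 group means was at 12 weeks in 55 (22.2% of all genes). The highest was in PH livers in 9 (26.5%), at 2 weeks in 50 (26.9%) and at 4 weeks in 9 (23%). Between 12 and 4 weeks the median difference was -0.19, from -0.83 to 0.23, with 57 genes below 0 (50.1% of all genes). Limma called none (lowest adjusted p = 0.999, with 0.11% of all genes called), and 0 members had an unadjusted p under 0.05 against 4.47% of all genes. Both 12-week arrays were below both 4-week arrays in 8 members (11.8%), against 13.7% of all genes, and above them in 1, Rpl27a, against 11.3% of all genes. Rpl36, Rps25, Rpl38 and Rps18 were at the lower end with -0.83, -0.66, -0.65 and -0.58. Rpl38, known from mouse for selective translation of Hox mRNAs, stood at 9.85 and 10.59 at 12 weeks and at 10.24 and 11.51 at 4 weeks. At the upper end were Rps23 at 0.23, Rpl27a at 0.20, Rpl37a at 0.18 and Rpl6 at 0.14. The median turned to 0.175 without the second 4-week array and to 0.025 without the first 12-week array. It was -0.11 within first arrays, with 24 genes above 0, and -0.29 within second arrays, with 14 above 0.

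Between 4 and 2 weeks the median difference was -0.22, from -0.65 to 0.48, with 58 genes below 0 (49.8% of all genes). Limma called none (lowest adjusted p = 0.728, with 0.448% of all genes called), and 0 members had an unadjusted p under 0.05 against 7.24% of all genes. Both 4-week arrays were below both 2-week arrays in 11 members (16.2%), against 20.1% of all genes. The lower end held Rpl15 at -0.65, Rpl11 and Rpl6 both at -0.59, and Rpl18 at -0.56. Rpl18, a large subunit protein, stood at 10.02 and 10.12 at 4 weeks, against 10.52 and 10.75 at 2 weeks, with no overlap. The upper end held Rpl36 at 0.48, Rps21 at 0.30, Rps10 at 0.20 and Rplp2 at 0.12, in each of which the second 4-week array stood far above the first, and each turned below 0 without that array. The median over the 68 genes turned to 0.11 without the first 4-week array. It was -0.35 within first arrays, with 1 gene above 0, and -0.07 within second arrays, with 28 above 0. In the F test of any difference among the 4 groups, limma called 0 members (lowest adjusted p = 0.280), while 1.79% of all genes were called. At an unadjusted p under 0.05 it held 1 member, against 11% of all genes.

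**Figure D4:**
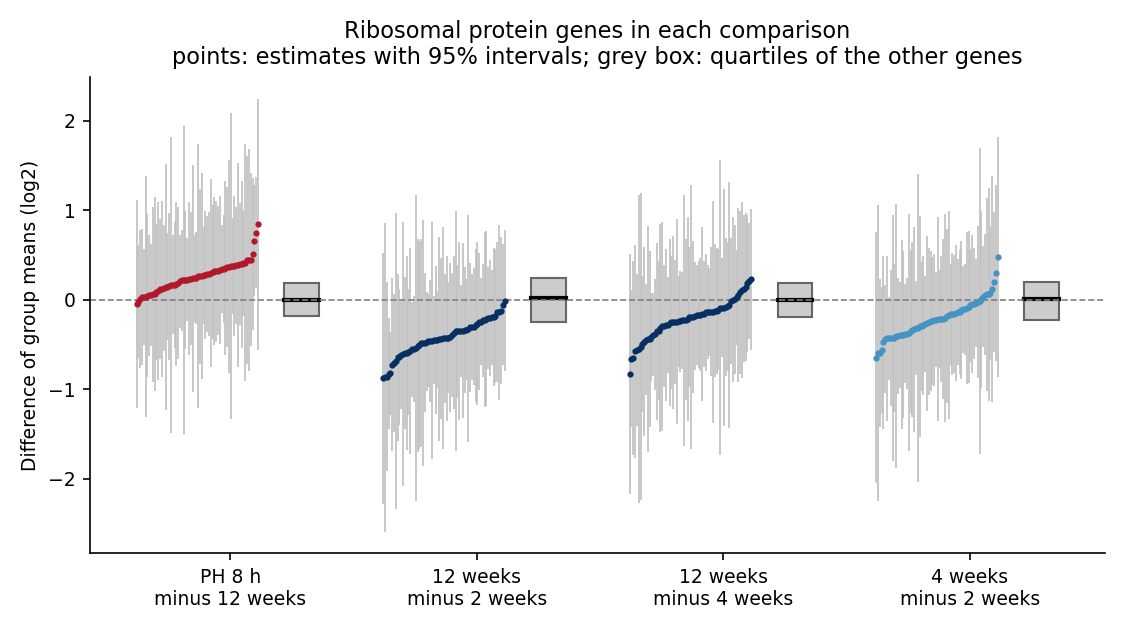
The plot gives the difference of group means (log2) of each of the 68 ribosomal protein genes in the 4 comparisons, sorted by size, with 95% intervals from limma, and the quartiles of the other genes as a grey box. All 68 estimates lie below 0 for 12 minus 2 weeks and 66 lie above 0 for PH minus 12 weeks, and most intervals cross 0.

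Many of these genes have near-identical processed copies in the genome, so their probe sets can share signal, and each level is uncertain to that extent. The rule found 249 single-symbol probe sets for the 68 genes, with 15 genes having 1 and 53 having more. In 22 genes the probe sets lay more than 1 log2 unit apart in mean level: Rpl10, Rpl13, Rpl21, Rpl23a, Rpl28, Rpl29, Rpl31, Rpl36, Rpl4, Rpl41, Rpl5, Rpl6, Rplp0, Rps15a, Rps2, Rps20, Rps21, Rps26, Rps28, Rps3, Rps9 and Rpsa. Rpl4, which forms part of the exit tunnel wall, had probe sets at 5.43 and 11.72, and Rps3, at the mRNA entry of the small subunit, at 5.60 and 11.86. Of the 249, 246 had a lower mean at 12 weeks than at 2 weeks, and 238 had a higher mean in PH livers than at 12 weeks. Probe sets of a gene were read on the same arrays, and some of Rpl39 had identical values on every array. Counts of probe sets are therefore not separate evidence. The 3 exceptions at 12 against 2 weeks were 1 probe set each of Rpl13, Rpl31 and Rps23, at 0.42, 0.43 and 0.03. The second array was higher for 216 probe sets in PH livers, 227 at 2 weeks, 241 at 4 weeks and 194 at 12 weeks. All 21 probe sets of Rpl21 were higher on the second array in all 4 groups, whereas those of Rpl29 were not.

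Other genes of protein synthesis were set beside these. Of the 33 initiation factors measured, which bring mRNA and the first tRNA to the small subunit, limma called 0 in any of the 4 comparisons. Their median difference was 0.43 between PH livers and 12 weeks with 30 above 0 (5 at an unadjusted p under 0.05), and -0.33 between 12 and 2 weeks with 31 below 0 (2 at an unadjusted p under 0.05). Eif4e, the cap-binding factor, averaged 10.12 in PH livers and 9.23 at 12 weeks, a difference of 0.89 ± 0.36 (limma adjusted p = 0.783). The 10 elongation factors had medians of 0.26 and -0.17 in these comparisons, with 0 called and 1 and 0 at an unadjusted p under 0.05, and Eef1a1, which delivers tRNA to the ribosome, differed by 0.05 ± 0.20 and -0.02 ± 0.20.

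The 19 ribosome biogenesis genes had a median of 0.74 between PH livers and 12 weeks, with 17 above 0, 0 called and 7 at an unadjusted p under 0.05. Ncl, the nucleolar protein nucleolin, averaged 11.80 in PH livers and 10.88 at 12 weeks, a difference of 0.92 ± 0.22 (limma adjusted p = 0.334). Fbl, the methyltransferase fibrillarin that modifies ribosomal RNA, averaged 8.91 in PH livers and 8.01 at 12 weeks, a difference of 0.90 ± 0.44. All 19 were below 0 between 12 and 2 weeks (median -0.44, 0 called, 1 at an unadjusted p under 0.05) and between 4 and 2 weeks (median -0.46, 0 called, 2 at an unadjusted p under 0.05), whereas between 12 and 4 weeks their median was 0.01. The 68 mitochondrial ribosomal proteins, which serve the organelle's own ribosome, had medians of 0.20 between PH livers and 12 weeks and -0.20 between 12 and 2 weeks, with 0 called and 0 and 1 at an unadjusted p under 0.05. The 8 other proteins made with or bound to the ribosome had medians of 0.22 and -0.51, with 0 called and 2 and 0 at an unadjusted p under 0.05. Among them, Rack1, a scaffold on the small subunit, differed by 0.16 ± 0.23 and -0.28 ± 0.23.

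The gap between arrays was shared by some of these lists. The mitochondrial ribosomal proteins had a median of first minus second array of -0.53 in PH livers, -0.24 at 2 weeks, -0.69 at 4 weeks and -0.77 at 12 weeks. Biogenesis genes had medians of -0.30, -0.27, -0.09 and -0.83 in the same order, the initiation factors -0.29, -0.16, -0.18 and -0.66, the 8 ribosome-bound proteins -0.25, -0.22, -0.51 and -0.19, and the elongation factors -0.04, -0.14, -0.00 and -0.23. At 12 weeks the mitochondrial, biogenesis and initiation lists had wider median gaps than the cytosolic ribosomal proteins. The 2190 other genes with a mean level of 9 or more had medians of -0.03, 0.08, -0.04 and -0.27.

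**Figure D5:**
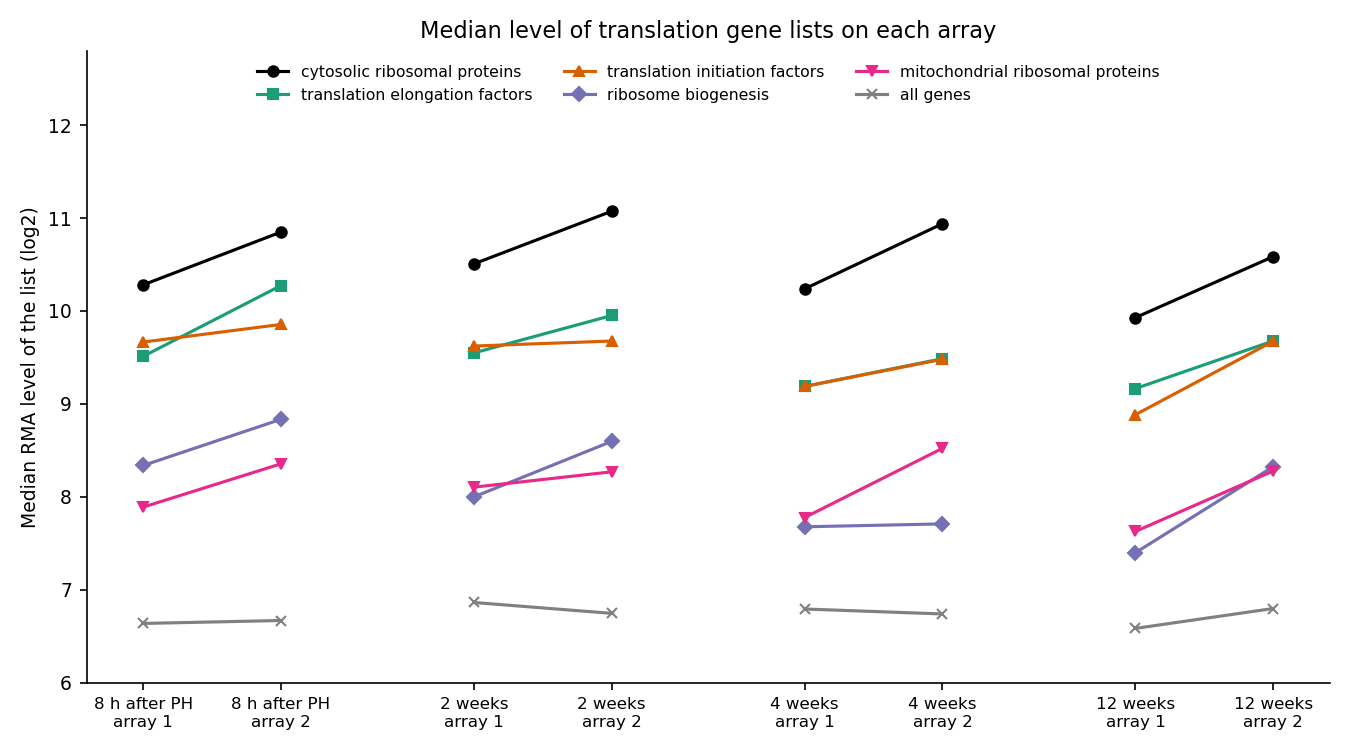
The plot gives the median log2 level of the cytosolic ribosomal proteins and of the other translation gene lists on each array, with a line joining the arrays of a group. The ribosomal protein median is higher on array 2 in all 4 groups, at 10.59 to 11.07, and the elongation factor median lies below it on every array.

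Markers of the cells in the tissue were read beside these results. The 11 hepatocyte markers summed to between 144.26 and 146.00 on the log2 scale over all arrays, so the label liver was borne out by its defining genes, with Alb between 14.10 and 14.19. The 6 erythroid markers measured summed to 35.59 and 35.46 in PH livers, 52.49 and 47.66 at 2 weeks, 44.16 and 46.86 at 4 weeks, and 36.97 and 39.34 at 12 weeks, and all 6 were lower at 12 than at 2 weeks, 3 of them called by limma (Alas2, Slc4a1 and Ahsp). The 7 stellate and fibroblast markers summed to 53.80 and 54.89 in PH livers, 63.54 and 62.12 at 2 weeks, 64.67 and 57.88 at 4 weeks, and 53.43 and 54.32 at 12 weeks, with 2 called lower at 12 than at 2 weeks (Des and Reln). The 6 neutrophil markers summed to 31.15 and 31.60 in PH livers, 48.32 and 34.89 at 2 weeks, 32.12 and 34.31 at 4 weeks, and 30.91 and 29.17 at 12 weeks, with 0 called by limma between 12 and 2 weeks and 6 at an unadjusted p under 0.05. The 8 lymphocyte markers summed to 41.46 on both arrays of PH livers, 40.88 and 41.41 at 2 weeks, 42.51 and 43.97 at 4 weeks, and 43.84 and 49.58 at 12 weeks, with 0 called and 5 higher at an unadjusted p under 0.05 between 12 and 2 weeks. The 8 macrophage markers summed to 68.80 on the second 12-week array and to between 73.87 and 75.96 on the other 7, with Vsig4 at 8.91 and 5.98 and Marco at 7.94 and 5.81 on the arrays at 12 weeks. Sums of the 4 endothelial markers ran from 35.48 to 38.07 and of the 4 cholangiocyte markers from 23.05 to 26.39. Some markers lay at low signal, as Ahsp did at 3.181 and 2.985 in PH livers and 2.952 and 3.145 at 12 weeks. Those values are below every receptor median given below, so sums with such markers partly hold low signal. The part of changes in cell mix in the ribosomal protein differences was not tested. A list of 214 olfactory, vomeronasal and taste receptor genes was read as a gauge of low signal. Limma called 2 of them higher at 12 than at 2 weeks and 1 higher at 4 than at 2 weeks, so the list is not background alone. Their median was 4.37 on the first array of PH livers and 4.25 on the first array at 12 weeks, against 3.61 to 3.78 on the other 6 arrays. The ribosomal protein genes had median gaps of -0.47 in PH livers and -0.48 at 12 weeks. At 2 and 4 weeks, where receptor medians lay between 3.68 and 3.73, the gaps were -0.41 and -0.67. The count of these genes called for the array number, given at the end, fell when the receptor level was a covariate. That fall has no clear reading, because the raised receptor level was itself found on first arrays only. The added term also leaves fewer residual degrees of freedom. The part of this raised low signal in the gaps between arrays was not tested.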

How the data were processed

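Per the submitters' processing notes, the authors made the deposited log2 levels by RMA (robust multi-array averaging), with Affymetrix Expression Console as the software. This method corrects background, equalises arrays by quantiles and summarises the probes of a set, so a level common to all genes is removed. No version, filter or genome build was found in the labels. Of 29214 probe sets, 15633 were listed with a gene in the platform annotation, 15310 with 1 symbol and 323 with several, which were not used. Of the single symbols, 15279 matched the GRCr8 gene table by identifier and none needed updating. Each gene was represented by its probe set with the highest mean level (527 genes had more than 1), which left 14506 genes.

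A model with 4 group means was fitted to all 8 arrays by lmFit and eBayes of limma 3.58.1 under R 4.3.3, with 4 residual and 4.27 prior degrees of freedom. A gene was called at a two-sided Benjamini-Hochberg adjusted p under 0.05 over all genes. The scripts were tested on simulated data. Alternatives changed the scaling, level filter, probe set rule, covariates, weights and threshold, and left out each array in turn. GRCr8 served for names and promoter windows only.

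The members and lists were chosen with earlier results of these data known. The named genes were the 4 highest and 4 lowest members of each comparison and by mean level, the 4 widest gaps between arrays, the stalk genes, Rpsa, Rpl5, Rpl11, Rps6, Rpl3, Rpl10, Rps19, and members with probe sets over 1 log2 unit apart. Rps3a, Rps7, Rps14, Rps15, Rpl34 and the genes named from other lists were added after their values were seen.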

Additional observations from a re-analysis of the deposited data

How the results depend on the processing

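No ribosomal protein gene was called by limma in any of the 4 comparisons or the F test under any alternative: centring, 75th percentile scaling or quantile normalization, a level filter, the mean of a gene's probe sets, all probe sets, an intensity trend, array weights, the receptor level as a covariate, an adjusted p under 0.01, or leaving out each array in turn (0 to 0 called). The spread of the member median between arrays of a group (pooled SD 0.44) exceeded each of the 4 median differences. Over the alternatives that kept all arrays or the arrays of 1 number, the medians ran from 0.19 to 0.36 for PH against 12 weeks, -0.43 to -0.19 for 12 against 2 weeks, -0.29 to 0.008 for 12 against 4 weeks and -0.35 to -0.07 for 4 against 2 weeks. When each array was left out in turn, it ran from -0.66 to -0.17 for 12 against 2 weeks, from -0.50 to 0.18 for 12 against 4 weeks, from -0.56 to 0.11 for 4 against 2 weeks and from -0.032 to 0.52 for PH against 12 weeks. With the receptor level as a covariate, the median for 12 against 4 weeks was 0.008, and without both first arrays of raised receptor level, an alternative chosen after seeing the data, it was 0.025. Leaving out an array leaves the group with 1, assumed to vary like the others.

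The replicate block gave the same medians (0.25, -0.43, -0.19 and -0.22) and again 0 members called in each comparison. At an unadjusted p under 0.05, 16 members (23.5%) passed under it for 12 against 2 weeks, against 14.8% of all genes. The numbers were not shown to pair the samples: correlations of the first minus the second array over all genes ran from 0.02 (2 and 12 weeks) to 0.57 (PH and 12 weeks), with 5 of the 6 above 0.1, and over the members from 0.39 to 0.79. The coefficient of the number in the block fit was read after seeing the data. It was above 0 with an adjusted p under 0.05 for 11 of the 68 members (16.2%), against 0.931% of all genes. Its median over the members was 0.52 log2. It was not particular to them, with 8 of the 68 mitochondrial ribosomal proteins called the same way (11.8%, median 0.55). Of the 19 ribosome biogenesis genes 2 were called (10.5%), and of the 33 initiation factors 0. Among the 2190 other genes with a mean level of 9 or more the share was 2.01%. The 11 members called included Rps15 (1.23 ± 0.15, SE), Rpl34 (1.14 ± 0.15) and Rpl10 (1.37 ± 0.22). That count was 6 with 75th percentile scaling, 22 over genes at or above the median level, 36 with array weights, and 0 with all probe sets, with the receptor covariate, at an adjusted p under 0.01 and without both arrays of raised receptor level. It ran from 0 to 13 when single arrays were left out: 0 without either array of PH, 4-week or 12-week livers.

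Differences of single genes with 1 array left out at a time were read only for the 4 highest and 4 lowest members of each comparison. They turned sign in 26 cases and kept it in 230. The other members were not examined in this way. For PH against 12 weeks, these ran for Rpl15 from -0.042 to 1.729, Rpl24 from -0.083 to 0.096, Rpl35 from -0.247 to 0.205, Rpl37a from -0.337 to 0.396 and for Rps29 from -0.584 to 0.488. For 12 against 2 weeks, these ran for Rpl15 from -1.763 to 0.008, Rps15a from -0.588 to 0.342, Rps2 from -0.294 to 0.18, Rps21 from -0.377 to 0.096 and for Rps23 from -0.423 to 0.405. For 12 against 4 weeks, these ran for Rpl36 from -1.936 to 0.273, Rpl37a from -0.015 to 0.379, Rpl6 from -0.323 to 0.606, Rps18 from -1.383 to 0.231 and for Rps23 from -0.046 to 0.504. For 4 against 2 weeks, these ran for Rpl36 from -0.625 to 1.584, Rplp2 from -0.609 to 0.844, Rps10 from -0.331 to 0.737 and for Rps21 from -0.402 to 0.998.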
